A study of Homo sapiens with 6 samples.

Results

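A set of 10 genes of the complement system and of the acute-phase response were examined in RPMI8226, an established cell line from human multiple myeloma. The genes were chosen by symbol, with earlier results of the same comparison in view, and are 10 of the 63677 genes in the count table. The classical pathway proteases C1R and C1S and their inhibitor SERPING1, the central component C3, the alternative pathway protease CFB, the membrane regulators CD46, CD55 and CD59, and the acute-phase genes SAA1 and LCN2 make up the set. RNA-Seq libraries were made from cells exposed for 6 h to 100 nM GST-PTR1 or to 100 nM GST, with 3 libraries of each treatment. GST-PTR1 is a fusion of glutathione-S-transferase (GST) with the PTR1 domain of HAPLN1, a protein of the extracellular matrix, and GST alone was the control. Both proteins were made in bacteria. The authors measured contaminating bacterial lipopolysaccharide and reported it a few orders of magnitude below what their NF-κB binding assay detects in these cells. All cells were of the same line, labelled wild type, and no other agent separated the treatments.

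Complement is a cascade of plasma proteases that tags particles with fragments of C3 and can end in a pore in the target membrane. In the classical pathway C1q binds its target, and C1r and C1s then cleave C4 and C2 to build a C3 convertase. In the alternative pathway factor B, the product of CFB, binds C3b and is cleaved by factor D to form another convertase, which deposits more C3b. Host cells carry CD46 and CD55, which act on the convertases, and CD59, which blocks pore assembly. Serum amyloid A and lipocalin 2 are secreted in the acute-phase response, a change of plasma proteins during inflammation. The liver makes most complement and acute-phase proteins in the body, and genes of both groups are known to respond to cytokines in other cells too.

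Members of the set fell into 3 kinds of values. CFB and LCN2 were within the limit of detection and C3 was close to it with GST, and all of them were counted in every GST-PTR1 library, CFB at 19.9 ± 4.16 CPM (SD, n = 3), C3 at 9.33 ± 0.933 CPM and LCN2 at 1.03 ± 0.16 CPM. Regulators on the membrane were abundant under both treatments, and their treatments overlapped in CPM. C1R, C1S, SERPING1 and SAA1 were counted at most 5 times in any library. The contrast between treatments was known when the genes were chosen, so the values of the 10 genes are given as a description without a test. CPM is a count divided by the library's total, scaled with edgeR's TMM factors and set to a common library size.

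In all, 6 of the 10 genes passed edgeR's expression filter (CFB, C3, LCN2, CD46, CD55 and CD59), and CFB, C3 and LCN2 passed it through their GST-PTR1 libraries, so that their fitted values had to differ and no call is counted for them. Total counts were 15202503 to 23453473 with GST and 22874133 to 44688737 with GST-PTR1, and libraries are ordered by these totals within each treatment below. At these depths 3 counts, taken as the limit that a count of 0 allows, are worth 0.12 to 0.18 CPM with GST and 0.0761 to 0.135 CPM with GST-PTR1. Limits and intervals cover counting error only. In bulk RNA, more cells that express a gene and more RNA per cell cannot be told apart.

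**Figure D1:**
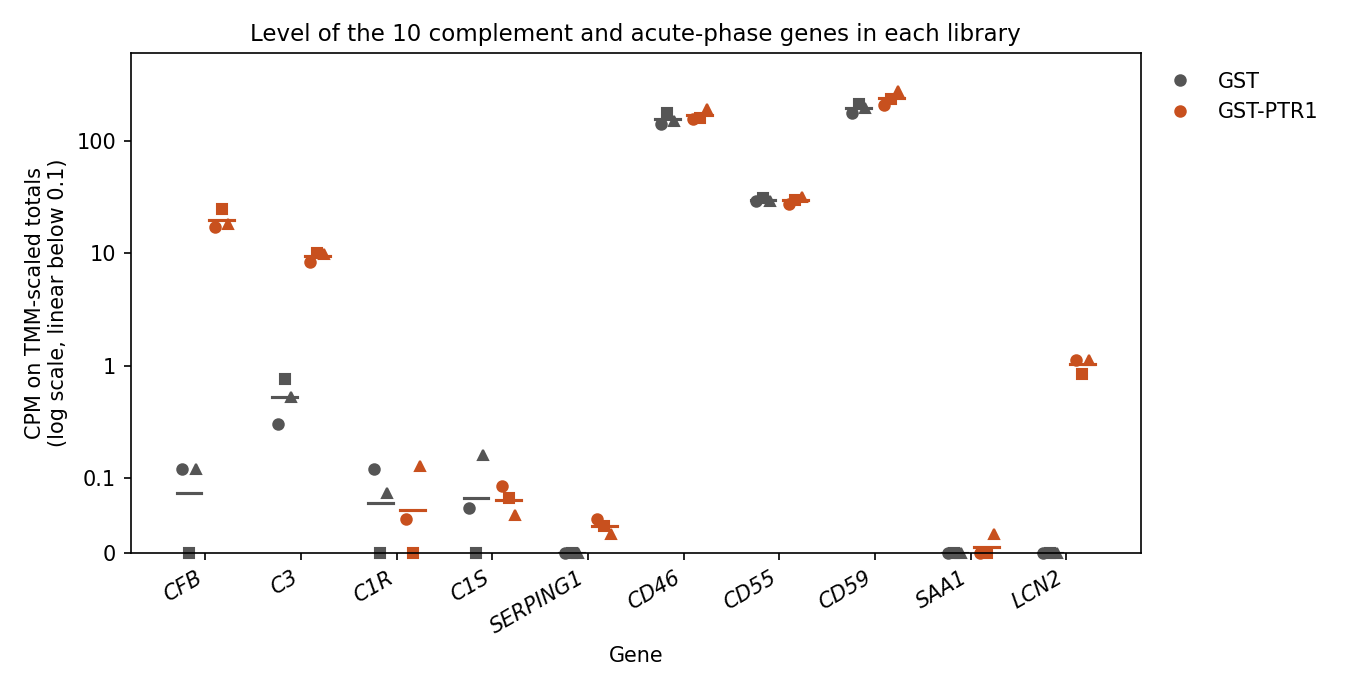
CPM on TMM-scaled totals (vertical axis, log scale above 0.1 and linear below) for the 10 genes in each of the 3 GST (grey) and 3 GST-PTR1 (orange) libraries, with circle, square and triangle for the libraries of smallest to largest total and bars at the means. CFB, C3 and LCN2 sit apart between the treatments, CD46, CD55 and CD59 overlap, and C1R, C1S, SERPING1 and SAA1 stay near 0.

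Windows of genome sequence upstream of CFB and LCN2, and of CD55 for comparison, are shown because the counts of CFB and LCN2 were higher together and those of CD55 were not. RefSeq start sites on GRCh38.p14 were used, all on the plus strand, and each run is the 250 bases before the start, 5′ to 3′. Capitals mark matches to 1 of 4 transcription factor motifs searched on both strands: the NF-κB consensus, the STAT motif GAS (TTCNNNGAA), the interferon-response motif ISRE and the C/EBP motif (TTGCNNAA).
CFB, chr6:31945845-31946094: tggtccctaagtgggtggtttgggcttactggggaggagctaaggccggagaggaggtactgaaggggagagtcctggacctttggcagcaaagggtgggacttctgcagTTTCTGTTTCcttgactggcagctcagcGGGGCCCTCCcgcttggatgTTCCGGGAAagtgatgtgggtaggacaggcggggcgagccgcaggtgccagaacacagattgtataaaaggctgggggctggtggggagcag
LCN2, chr9:128149203-128149452: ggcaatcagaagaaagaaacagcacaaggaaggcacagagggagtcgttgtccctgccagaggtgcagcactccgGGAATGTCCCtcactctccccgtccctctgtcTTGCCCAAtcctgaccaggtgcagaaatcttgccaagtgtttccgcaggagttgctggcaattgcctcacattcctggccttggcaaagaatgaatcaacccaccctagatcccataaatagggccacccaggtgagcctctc
CD55, chr1:207321428-207321677: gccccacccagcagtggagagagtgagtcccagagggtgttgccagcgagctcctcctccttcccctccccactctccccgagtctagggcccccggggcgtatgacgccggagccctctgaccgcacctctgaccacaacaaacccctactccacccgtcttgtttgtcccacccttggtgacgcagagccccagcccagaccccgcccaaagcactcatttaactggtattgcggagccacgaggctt

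In the CFB window an ISRE match stood at -140 to -131 from the start, on the minus strand, an NF-κB match at -112 to -103 and a GAS match at -92 to -84. The LCN2 window held an NF-κB match on the minus strand at -175 to -166 and a C/EBP match at -143 to -136. No letters of the 4 motifs were found upstream of CD55. None of these matches overlapped another. RefSeq windows from 250 bases before to 50 after the start were at hand for CFB, LCN2, CD46, CD55, CD59 and C1R, 11 windows in all, and not for C3, C1S, SERPING1 or SAA1. An NF-κB match occurred in 2 of the 11 windows (11.3% of all 35116 RefSeq windows), GAS in 4 (7.66%), ISRE in 1 (3.57%) and C/EBP in 4 (10.5%). The other matches lay in windows of CD59 and C1R, and 2 of the GAS matches are the same site upstream of CD59 seen from neighbouring starts. Matches of this kind are a description of letters and were not measured as binding sites.

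CFB (ENSG00000243649, chromosome 6 of GRCh37, 31895475 to 31919861, plus strand) encodes complement factor B. It was counted 2, 0 and 3 times in the GST libraries and 377, 672 and 710 times in the GST-PTR1 libraries. Every GST library was at or under the limit of 3 counts, and every GST-PTR1 library was far above it. On the CPM scale the GST libraries stood at 0.12, 0.0 and 0.12 and the GST-PTR1 libraries at 16.9, 24.6 and 18.0, so that the library of middle depth was the highest. Its log2 fold change in edgeR's fit was 7.87 (standard error 0.37). The ratio of the summed counts, 1759 with GST-PTR1 over 5 with GST and corrected for the scaled totals, was 248, with a 95% exact counting interval from 106 to 764.

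The exons of CFB overlap those of its neighbour C2 on the same strand. C2 (ENSG00000166278, chromosome 6, 31865562 to 31913449) encodes the classical pathway counterpart of factor B. Of the 6622 exon bases of CFB, 1648 (24.9%) were also exon bases of C2, and 3874 (58.5%) were exon bases of a joined gene model, ENSG00000244255, that runs from C2 into CFB. Because reads on exons of several genes were dropped in the counting, the CFB counts rest on the 2725 exon bases (41.2%) that belong to CFB alone. These lay in 12 stretches, the longest of 577 bases, all in the 3′ part of the gene past the last exon of C2. Of these bases 2689 (98.7%) lay between exons of the joined model and 36 past its last exon, so the counts rest on CFB exon annotation that the joined model's spliced transcripts do not hold, and the level of CFB per length is uncertain. Per unshared base the level of CFB was 0.0317 ± 0.0275 RPKM (CPM on library totals per kilobase of exon) with GST and 6.81 ± 1.51 RPKM with GST-PTR1. On the whole exon length it was 0.0131 ± 0.0113 and 2.80 ± 0.622 RPKM. Reads that reached from an unshared stretch onto shared bases were dropped too, and the stretches were as short as 28 bases. Neither length is therefore the one that could collect counts.

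Counts on C2's own bases were low, although 3693 of its 5536 exon bases were unshared. C2 was counted 7, 2 and 6 times with GST and 16, 21 and 25 times with GST-PTR1. The GST-PTR1 libraries together held 62 counts on C2 beside 1759 on CFB. The joined model had no base of its own and 0 counts in every library, as the counting rule fixes. Reads on the exons of its spliced transcripts were therefore dropped, and its level cannot be read from these counts.

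**Figure D2:**
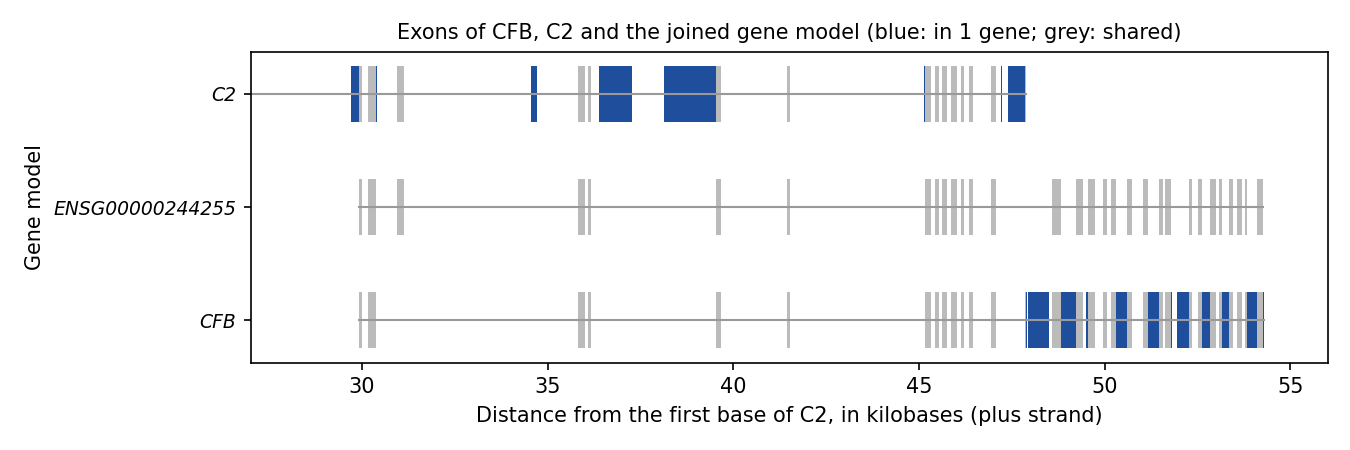
Exons of C2, the joined model ENSG00000244255 and CFB along the plus strand (horizontal axis, distance from the first base of C2 in kilobases, with the first part of C2 left out). Blue exon bases belong to 1 of the 3 models and grey ones are shared, and the unshared part of CFB, which carries its counts, begins past the end of C2.

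C3 (ENSG00000125730, chromosome 19, 6677715 to 6730573, minus strand) encodes the component on which all pathways converge, and its exons overlap no other gene on its strand. It was counted 5, 16 and 13 times in the GST libraries and 184, 272 and 385 times in the GST-PTR1 libraries. All GST libraries were above the limit of detection, at 0.301, 0.758 and 0.522 CPM, and all GST-PTR1 libraries stood higher, at 8.26, 9.97 and 9.77 CPM. The log2 fold change was 4.10 (standard error 0.25), and the summed counts differed 17.4-fold (95% exact counting interval 12.4 to 25.3). The spread among GST-PTR1 libraries, an SD of 0.933 CPM, was small beside the gap of several CPM between the treatments.

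LCN2 (ENSG00000148346, chromosome 9, 130911350 to 130915734, plus strand) encodes lipocalin 2, which binds bacterial iron carriers. It had 0 counts in all 3 GST libraries and 25, 23 and 44 counts in the GST-PTR1 libraries. The GST-PTR1 libraries agreed closely on the CPM scale, at 1.12, 0.843 and 1.12. Set against the limit of 3 counts over the GST libraries together, the GST-PTR1 counts stood 21.6-fold higher, before their own counting error. The 95% exact counting interval of the ratio, which also covers the error of the GST-PTR1 counts, began at 17.2. A fitted fold change against a treatment at 0 depends on the prior count and is not given.

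The classical pathway proteases and their inhibitor were barely detected. C1R (ENSG00000159403, chromosome 12, 7187513 to 7245203, minus strand) was counted 2, 0 and 2 times with GST and 1, 0 and 5 times with GST-PTR1, a ratio of 1.06 with a counting interval from 0.251 to 5.09. C1S (ENSG00000182326, chromosome 12, 7096351 to 7178336, plus strand), which lies 9176 bases from C1R on the opposite strand, was counted 1, 0 and 4 times and then 2 times in each GST-PTR1 library, a ratio of 0.845 (0.215 to 3.5). On their strands C1R shares 14.3% of its exon bases with C1RL and C1S shares 3.58% with EMG1, and reads there were not counted for either. Both intervals run from several-fold lower to several-fold higher, so a difference of that size was not detectable at this depth. SERPING1 (ENSG00000149131, chromosome 11, 57364860 to 57382326, plus strand), the C1 inhibitor gene, had 0 counts with GST and 1 count in each GST-PTR1 library. Every value of SERPING1 was within the limit of 3 counts, and no fold is given for it.

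SAA1 (ENSG00000173432, chromosome 11, 18287721 to 18291524, plus strand) encodes serum amyloid A1, a major acute-phase protein of plasma. It had 0 counts in 5 of the 6 libraries and 1 count in the deepest GST-PTR1 library. Its near-identical copy SAA2, 17530 bases away, had 0 counts with GST and 1, 0 and 3 with GST-PTR1. Reads that matched both copies were not counted, so the values of both genes are lower limits of the reads that came from them. Part of SAA1 (6.67% of exon bases) is also annotated as RNA5SP334, which had 0 counts.

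Membrane regulators were well counted in every library. CD46 (ENSG00000117335, chromosome 1, 207925402 to 207968858, plus strand), a cofactor for the cleavage of C3b and C4b, stood at 140, 176 and 149 CPM with GST and 154, 159 and 189 CPM with GST-PTR1. Its treatments overlapped, with a log2 fold change of 0.11 (standard error 0.12). CD55 (ENSG00000196352, chromosome 1, 207494853 to 207534311, plus strand), which speeds the decay of the convertases and lies 391090 bases from CD46, stood at 29.3, 30.7 and 29.1 CPM and at 27.1, 29.7 and 31.8 CPM. With TMM factors the GST values of CD55 all fell inside the range of its GST-PTR1 values, and the log2 fold change was -0.01 (standard error 0.11).

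CD59 (ENSG00000085063, chromosome 11, 33719807 to 33757991, minus strand), the inhibitor of the terminal pore, stood at 176, 212 and 196 CPM with GST and 206, 235 and 275 CPM with GST-PTR1. The highest GST library was above the lowest GST-PTR1 library, and the log2 fold change was 0.29 (standard error 0.13). On library totals, without TMM factors, the log2 fold changes were -0.09 for CD46, -0.21 for CD55 and 0.09 for CD59, and the median of all genes tested moved alike, from 0.01 to -0.19. The sign for CD46 thus depended on the scaling, and so did the overlap of CD55. On library totals every GST library of CD55 stood above every GST-PTR1 library, at 7.09 ± 0.158 against 6.14 ± 0.214 RPKM. Of the 3 genes, CD59 alone has an overlap on its strand, 5.14% of its exon bases with C11orf91, which was counted at most 3 times in a library.

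Levels can be compared between genes per length, as RPKM. With GST the order was CD59 at 42.0 ± 3.05 RPKM, CD46 at 19.0 ± 1.93 and CD55 at 7.09 ± 0.158 (SD, n = 3 each). These 3 levels differed by more than their spread, and the means of 91.0%, 81.0% and 60.5% of all genes tested were lower. C3 followed at 0.0672 ± 0.0281 RPKM, above 0.845% of the genes tested. C1R at 0.0154 ± 0.0142, CFB at 0.0131 ± 0.0113 and C1S at 0.0123 ± 0.0135 RPKM could not be ordered within their spread, and SERPING1, SAA1 and LCN2 were at 0. With GST-PTR1 and whole exon lengths the regulators again led, at 44.9 ± 4.27, 17.8 ± 1.08 and 6.14 ± 0.214 RPKM for CD59, CD46 and CD55. CFB at 2.80 ± 0.622, C3 at 1.04 ± 0.0838 and LCN2 at 0.466 ± 0.0726 RPKM came next. The place of CFB beside CD55 is uncertain, because CFB stood at 6.81 ± 1.51 RPKM per unshared base.

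Beyond the 10 genes, 49 other complement genes were taken from a list of components, regulators and receptors. In all, 19 of them were tested, of which 7 were higher and 2 lower after GST-PTR1 (edgeR's quasi-likelihood test, adjusted p under 0.05), and 10 were not called. The 7 include C1QB and C2, which passed the expression filter through their GST-PTR1 libraries, so the count is a description. With at least 10 counts required in every library, which left both out, 5 of 16 were higher and 2 lower. Of the 15359 genes that passed that filter, 1317 were higher and 1754 lower. Over all 16926 genes tested, 20.6% were called, 9.15% higher and 11.4% lower. Values of the treatments stayed apart for 12 of the 19, C1QB and C2 among them, beside 40.4% of all genes tested. The median log2 fold change was -0.14, beside 0.01. The list as a whole was not tested against other genes. The 30 genes that were not tested include 11 with 0 counts in every library, and 19 of the 49 genes were at or under 3 counts in all 6 libraries.

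Among the 19 tested genes, the 4 largest increases were those of the classical pathway genes C1QB, C4A, C4B and C2. C1QB, which encodes the B chain of C1q, had 1 count in each GST library and 121, 236 and 369 counts with GST-PTR1. Like CFB, it passed the expression filter through its GST-PTR1 libraries, and it is given as a value, 7.22 on the log2 scale (standard error 0.42). Every GST-PTR1 library stood far above every GST library, and the ratio of summed counts was 170 (counting interval 58.1 to 829). The other C1q chains, whose genes lie beside C1QB on chromosome 1, were too low to be tested. C1QA averaged 0.38 CPM with GST and 0.325 CPM with GST-PTR1, a ratio of 0.939 with a counting interval from 0.536 to 1.67, which holds 1. C1QC averaged 0.0717 and 0.225 CPM, a ratio of 3.87 (1.32 to 15.5).

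C4A and C4B, near-identical genes for the 2 forms of C4, both rose. C4A stood at 109, 78.5 and 98.5 CPM with GST and 451, 341 and 297 CPM with GST-PTR1, and C4B at 44.4, 33.4 and 37.0 and then 168, 129 and 119 CPM. In both genes the GST-PTR1 library of smallest total was the highest, and no library crossed to the other treatment's range. The log2 fold changes were 1.93 (standard error 0.17, adjusted p = 1.66e-05) and 1.86 (standard error 0.15, adjusted p = 9.47e-06) in edgeR's quasi-likelihood test. Reads that matched both copies were not counted, so the levels of both genes are lower limits. How the remaining reads were assigned between such copies is uncertain. C4A lies 29939 bases downstream of CFB in the same gene cluster.

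C2 had low counts and, like C1QB, passed the expression filter through its GST-PTR1 libraries. Its increase is therefore given as a value, 1.52 on the log2 scale (standard error 0.43). Its call as higher, which enters the count above, was lost with DESeq2's test at a log2 fold change of 1.54. Dropping the deepest GST library (1.52) or the GST-PTR1 library of middle total (1.46) also lost it. These folds were close to that of the full fit. A fit that lacked the GST library of middle total lost the call too, with a lower log2 fold change of 1.14.

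C1QBP, a mostly mitochondrial protein named for binding C1q, was called at the margin with a log2 fold change of 0.40 (adjusted p = 0.0452 in edgeR's quasi-likelihood test). That call was lost without any 1 of the 6 libraries (adjusted p 0.0636 to 0.125) and with library totals (log2 fold change 0.20, adjusted p = 0.229).

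Receptors for complement fragments accounted for both genes that fell. C5AR2, a receptor for the C5a fragment, stood at 3.55, 2.13 and 3.33 CPM with GST and 1.17, 0.989 and 0.812 CPM with GST-PTR1 (log2 fold change -1.62, standard error 0.26, adjusted p = 0.00152). C3AR1, the C3a receptor, stood at 12.9, 13.5 and 13.0 CPM and then 7.86, 7.95 and 9.37 CPM (log2 fold change -0.64, standard error 0.13, adjusted p = 0.00613). Both genes had all GST-PTR1 libraries below all GST libraries. The 10 tested genes that were not called had log2 fold changes from -0.46 to 0.67 and adjusted p from 0.0907 to 0.948. CR2, the receptor for C3d that B cells carry, was the most abundant of these on the CPM scale, at 292 ± 24.4 with GST and 257 ± 35.9 with GST-PTR1.

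**Figure D3:**
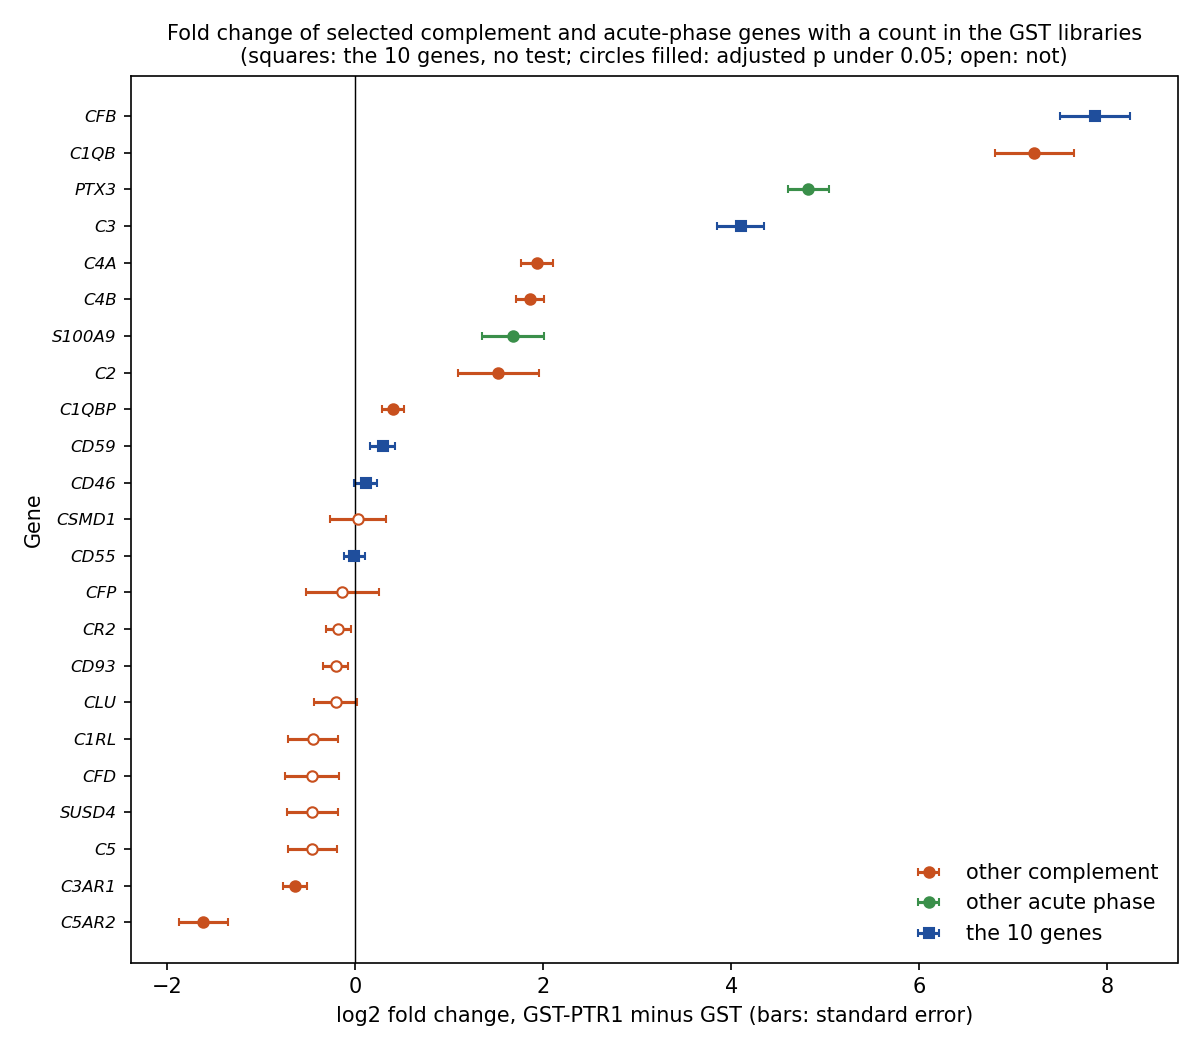
Log2 fold change (GST-PTR1 minus GST, horizontal axis) with its standard error for the members (blue squares, with no test) and for other complement (orange) and acute-phase genes (green) selected from those tested with a count in the GST libraries, drawn as circles that are filled where the adjusted p was under 0.05. CFB at 7.87 and C1QB at 7.22 lie at the upper end, CD46, CD55 and CD59 near 0, and C5AR2 at -1.62 at the lower end, and LCN2 is left out because its GST libraries were at 0. C1QB and C2 passed the expression filter through their GST-PTR1 libraries.

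Of 28 other acute-phase genes, which included plasma proteins of the liver and partners of LCN2, 2 were tested and both rose. Over all genes tested 20.6% were called and 9.15% were higher, and 2 genes are too few to set a share beside these. PTX3, a soluble pattern recognition protein related to C-reactive protein, was counted 12, 19 and 28 times with GST and 496, 662 and 1291 times with GST-PTR1. All its GST-PTR1 libraries were far above the GST libraries, by 4.82 on the log2 scale (standard error 0.22, adjusted p = 1.06e-07 in edgeR's quasi-likelihood test). S100A9, a subunit of calprotectin, stood at 1.56, 2.13 and 3.33 CPM and then 5.07, 6.52 and 11.2 CPM (log2 fold change 1.68, standard error 0.33, adjusted p = 0.00462). The other 26 genes had too few counts to be tested. There were 14 of the 28 with 0 counts in every library, and 20 were at or under 3 counts in all 6 libraries.

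**Figure D4:**
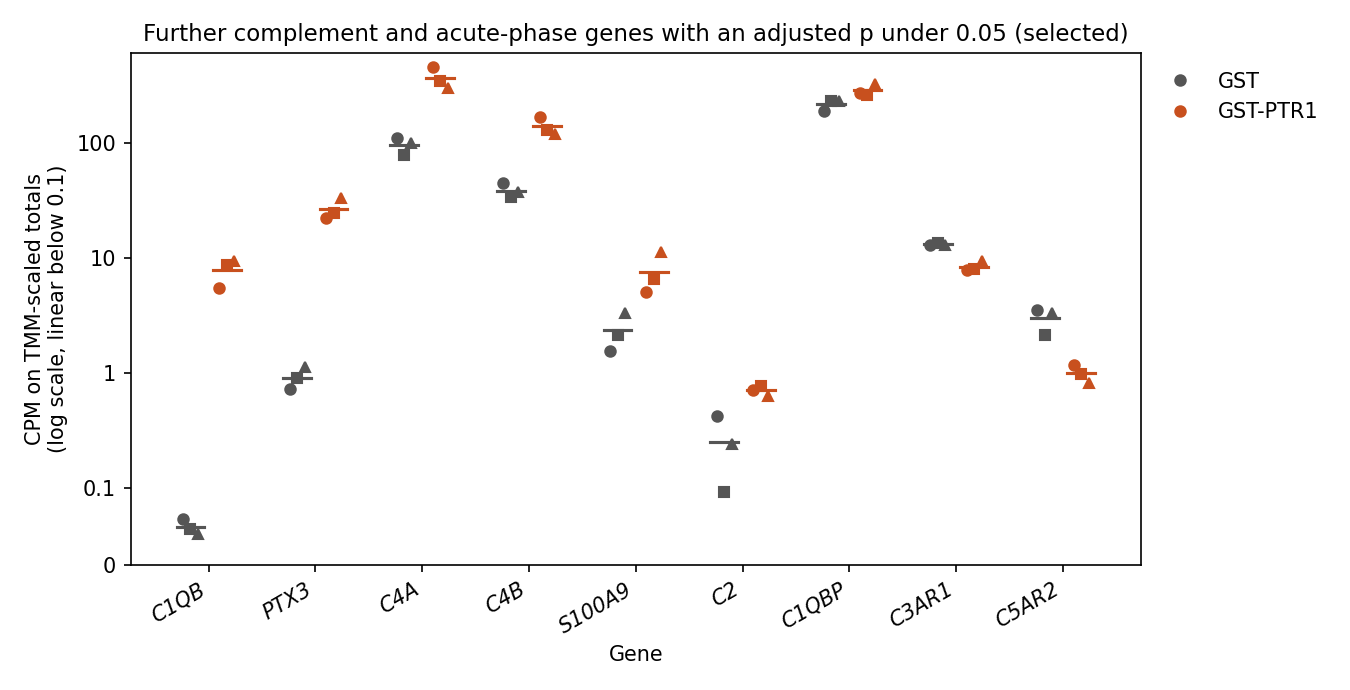
CPM on TMM-scaled totals (vertical axis, log scale above 0.1 and linear below) in each GST (grey) and GST-PTR1 (orange) library for complement and acute-phase genes outside the 10, selected from those with an adjusted p under 0.05 and ordered by fold change, with bars at the means. The treatments do not overlap for any gene shown, and C3AR1 and C5AR2 at the right are the 2 lower with GST-PTR1. C1QB and C2 passed the expression filter through their GST-PTR1 libraries.

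Markers of the labelled cell type were present in every library. All 7 plasma cell markers were tested, and their summed level was 1220 to 1400 CPM with GST and 1270 to 1280 CPM with GST-PTR1. Within that sum PRDM1, IRF4 and SLAMF7 rose and SDC1, TNFRSF17 and XBP1 fell, among them SDC1 (CD138) from 375 ± 57.4 to 184 ± 15.7 CPM. Hepatocytes and neutrophils are known sources of complement proteins and of LCN2. ALB, APOB and TTR had 0 counts in every library, and the 6 hepatocyte markers summed to 0.16 to 0.301 CPM with GST and 0.269 to 0.685 CPM with GST-PTR1, a sum that includes the acute-phase gene SERPINA1. MPO, ELANE and S100A12 also had 0 counts in every library, and the 4 neutrophil markers summed to at most 0.0898 CPM. Monocyte and macrophage markers (6 genes, with CD163 and FCGR3A at 0 throughout) summed to 0.711 to 1.68 CPM with GST and 0.513 to 0.898 CPM with GST-PTR1. The 4 T cell markers summed to 4.87 to 5.3 and 2.97 to 3.46 CPM, nearly all of it CD8A. CD2 had 0 counts in every library, and CD3D and CD3E were at or under 3 counts in all 6. CD8A, the 1 of the 4 that was tested, fell from 5.07 ± 0.281 to 3.13 ± 0.287 CPM. The part of other cells in the results was not tested beyond these sums.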

How the data were processed

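The deposited file holds the authors' raw counts, 1 whole number per gene and library, made with featureCounts version 1.5.0-p1 on exons of the Ensembl release 75 annotation of GRCh37 (hg19). Per the file headers, counting was by strand, one read at a time, without reads that mapped more than once or lay on exons of more than 1 gene. FastQC, Subread and limma are also named in the submitters' processing notes, and the aligner's version is not given in the sources used here. Columns were assigned to treatments by name. Their numbers do not match the samples' replicate numbers, so libraries were not paired in the main fit. Libraries of a treatment differed by more than sampling noise (smallest chi-square per gene 7.66) and all 6 were used.

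The counts were fitted in R 4.3.3 with edgeR 4.0.16 (TMM factors, filterByExpr, glmQLFit, glmQLFTest, Benjamini-Hochberg adjustment over all genes tested), after the fit was tested on simulated data. Standard errors were not taken from the fit but computed as the absolute log2 fold change over the square root of the test's F statistic, so they are approximate. RPKM used library totals and the deposited exon lengths. Exon overlap was computed from the deposited intervals, ratios of summed counts with exact intervals in SciPy 1.17.1, and motifs on RefSeq windows of GRCh38.p14. Alternatives were DESeq2 1.42.0 size factors or test, limma 3.58.1 voom, library totals, other filters, leaving out each library, RPKM on TMM-scaled totals, overlap on either strand and a narrower NF-κB motif. Figures were drawn with matplotlib 3.10.9.

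Members and gene lists were chosen with earlier results of these data known. Named genes are the members, genes that share their exon bases, C2, SAA2 and, of each other list, up to 5 called genes of largest fold change in each direction. C1QBP, C1QA, C1QC, CR2 and the genes with few counts were named after their values were seen. Some genes of the complement list enter its counts but are not reported here by name or in the figures.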

Additional observations from a re-analysis of the deposited data

How the results depend on the processing

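Of all genes tested, 3486 were called, and leaving out 1 library gave 2287 to 3349 (1051 to 1531 higher, 1178 to 1818 lower), with 2288 without the GST library of 23453473 counts and 2287 when the GST-PTR1 library of 28837431 counts was left out. Without the GST-PTR1 library of 44688737 counts 1212 genes were lower in place of 1937. With library totals 927 were higher and 3795 lower, and with at least 1 count in any library as the filter 2608 were higher. With at least 10 counts required in every library, CFB, C3 and LCN2 were not tested, and 0 of the 3 members left were called. The fitted log2 fold change of CFB ran from 7.31 to 8.42 and that of C3 from 3.88 to 4.43 when 1 library was left out. Leaving out 1 library gave 5 to 6 other complement genes higher, 2 lower, and 2 to 3 other acute-phase genes called. C4A, C4B, C3AR1, C5AR2, PTX3 and S100A9 kept their direction and their call under all alternatives that tested them, and C1QB, given as a value, kept its direction. The narrower NF-κB motif matched 0 of the 11 windows of the members. Depth limits C1R, C1S, SERPING1 and SAA1, for which a several-fold difference could not be seen. The numbers in the column names do not match the samples' replicate numbers, so the replicate block set for all libraries was not run. The names of 4 libraries, 2 of each treatment, share a number across the treatments. Fits of these 4, added after seeing the data, called 3638 genes without a block and 3318 with that number as a replicate block. Both fits called 8 other complement genes, 6 higher and 2 lower. Deviations of same-numbered libraries from their group means had a correlation of -0.0297 across genes, and a shared number is not stated to mark a pair.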

Other observations

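Of the other complement and acute-phase genes below the expression filter, 31 had a count in some library. Corrected for the scaled totals, the counting interval of the ratio held 1 for 25 of them, lay above 1 for 5 (C1QC, CFI, SERPINA1, LBP and S100A8) and below 1 for C8G, a chain of the terminal complement component C8. C8G stood at 0.721, 0.237 and 0.441 CPM with GST and 0.269, 0.0733 and 0.279 CPM with GST-PTR1, so that its treatments overlapped. The intervals cover counting error only. SERPINA1, which encodes the protease inhibitor alpha-1-antitrypsin, was counted 1, 2 and 2 times with GST and 3, 17 and 24 times with GST-PTR1. The GST-PTR1 library of smallest total was at the limit of 3 counts while the other two were well above it, and the ratio of summed counts was 6.2 (95% exact counting interval 2.46 to 20.0). When every gene with at least 1 count in any library was tested, SERPINA1 had a log2 fold change of 2.55 (adjusted p = 0.000759 in edgeR's quasi-likelihood test) and was the 1 gene called among those of both lists that the usual filter had removed. Under that filter 4914 of 31617 genes were called. The adjusted p of S100A9 in the same test moved from 0.00462 to 2.22e-15, so adjusted p are not comparable between the filters.

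CFI, the gene of the protease that cleaves C3b, stood at 0.0, 0.0474 and 0.0401 CPM with GST and 0.18, 0.183 and 0.178 CPM with GST-PTR1, and it was not called under that filter (adjusted p = 0.0958). C1QC was not called either (adjusted p = 0.0986). LBP, which encodes the lipopolysaccharide-binding protein, had 0 counts with GST and 1, 6 and 1 with GST-PTR1, so that most of its counts came from 1 library (adjusted p = 0.0939). S100A8, the partner of S100A9 in calprotectin, averaged 0.163 CPM with GST and 0.341 CPM with GST-PTR1 (adjusted p = 0.206).

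PTX3 and C1QB, higher with GST-PTR1 as CFB and C3 were, each had an NF-κB match in their RefSeq windows, at -97 to -88 for PTX3, where another match begins 1 base later, and at -26 to -17 for C1QB. Both also held a C/EBP match at -156 to -149. The RefSeq windows of C2 held none of the 4 motifs.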
